A study of Mus musculus with 23 samples.

Results

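Distal peaks that were found on day -1 and on neither neighbouring day were described in 3T3-L1 cells, an established mouse preadipocyte line that can be turned into fat cells in culture. Open chromatin was read out with ATAC-seq, whose transposase cuts accessible DNA and leaves sequencing adapters there. Sub-confluent cells were transfected with 50 nM of siRNA against Kdm5c, or with the same dose of non-targeting siRNA, named scramble, on day -3 of the differentiation schedule. The cells of day -1 had thus carried the siRNA for 48 hours, and 4 libraries of each arm were made. A distal peak was a nuclear peak of the day -1 count table to which the authors' table of normalised values gave no gene. It was a member when it shared no base with any peak called on day -2 or day 0. The members were thus chosen by the peak calls and positions of the 3 days, and whether those calls were made on pooled libraries is unknown. By this rule 4898 of the 22278 distal peaks of day -1 (22%) were members, out of 31970 peaks on that day and 153043 on all 3 days. On day -2, 71.7% of 71751 distal peaks were found on that day alone, and on day 0 this held for 35.3% of 26920. Each day had its own peak set, and counts exist only inside that day's peaks. Absence from a peak list therefore does not give the level of accessibility at a member's position on the other days.

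Distal open chromatin lies away from the promoters of the genes it may serve and holds, among other things, enhancers, where transcription factors bind. Preadipocytes are known to open and close many such sites before and after the differentiation cocktail is added, with AP-1, TEAD, C/EBP and nuclear factor I proteins among the factors known to bind them. KDM5C removes methyl groups from lysine 4 of histone H3, a modification that marks active promoters and, in its monomethylated form, enhancers. Knockdown of the Kdm5c mRNA cannot be checked with accessibility data.

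The members touched few of the promoter windows listed by RefSeq. Such a window runs from 250 bases before to 50 bases after a transcription start of GRCm38.p6. In all, 67 of 4898 members (1.37%) overlapped one, and 26 of these 67 windows belonged to coding genes. Sequence could be read only there. The windows of Rai14 (actin-binding protein), Per1 (circadian clock component), Furin (proprotein-processing protease) and Txnrd1 (cytosolic thioredoxin reductase) are shown because these members had the highest mean counts among those that covered at least 100 bases of a coding window. They are printed 5′ to 3′ on the strand of the gene, with capitals for the bases inside the member when both deposited end positions are taken as part of the peak.
Rai14, minus strand, chr15:10713491-10713790: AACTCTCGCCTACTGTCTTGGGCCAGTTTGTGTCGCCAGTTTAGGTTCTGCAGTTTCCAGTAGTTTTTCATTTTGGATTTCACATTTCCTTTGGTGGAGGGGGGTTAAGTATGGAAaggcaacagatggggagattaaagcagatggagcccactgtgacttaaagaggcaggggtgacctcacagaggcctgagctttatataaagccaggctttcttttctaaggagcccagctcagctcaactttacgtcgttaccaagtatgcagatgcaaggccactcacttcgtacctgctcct
Per1, plus strand, chr11:69099902-69100201: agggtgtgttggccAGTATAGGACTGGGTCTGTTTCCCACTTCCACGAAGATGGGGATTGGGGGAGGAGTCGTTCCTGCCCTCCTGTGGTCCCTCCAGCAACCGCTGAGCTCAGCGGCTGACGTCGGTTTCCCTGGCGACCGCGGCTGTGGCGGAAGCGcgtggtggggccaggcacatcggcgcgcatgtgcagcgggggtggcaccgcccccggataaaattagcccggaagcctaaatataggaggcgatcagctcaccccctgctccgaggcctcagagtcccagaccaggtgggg
Furin, minus strand, chr7:80402763-80403062: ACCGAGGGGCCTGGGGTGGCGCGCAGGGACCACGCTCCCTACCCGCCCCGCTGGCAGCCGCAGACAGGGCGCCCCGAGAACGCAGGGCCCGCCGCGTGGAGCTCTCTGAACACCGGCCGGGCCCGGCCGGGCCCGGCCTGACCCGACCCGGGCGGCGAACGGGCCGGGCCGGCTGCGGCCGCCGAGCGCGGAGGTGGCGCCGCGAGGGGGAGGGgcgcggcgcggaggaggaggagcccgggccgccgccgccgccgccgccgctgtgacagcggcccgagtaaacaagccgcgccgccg
Txnrd1, plus strand, chr10:82860091-82860390: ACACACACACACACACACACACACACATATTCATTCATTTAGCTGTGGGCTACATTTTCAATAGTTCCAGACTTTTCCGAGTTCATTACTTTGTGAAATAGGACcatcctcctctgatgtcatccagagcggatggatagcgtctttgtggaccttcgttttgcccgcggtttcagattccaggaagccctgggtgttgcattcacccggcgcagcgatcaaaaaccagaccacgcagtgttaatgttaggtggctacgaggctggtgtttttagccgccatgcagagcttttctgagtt
The member covered 116 bases of the Rai14 window, 145 of the Per1 window, 214 of the Furin window and 104 of the Txnrd1 window. G and C made up 48.0% of the Rai14 window, 64.7% of the Per1 window, 82.3% of the Furin window and 48.0% of the Txnrd1 window. The covered part of the Txnrd1 window opened with a run of AC repeats.

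Day -1 libraries held 9202281 to 14913397 counts in peaks, of which mitochondrial peaks took 87.6% to 92.6% in Kdm5c siRNA libraries and 90.9% to 93.2% in scramble libraries. This left 936438 to 1446979 nuclear counts in Kdm5c siRNA libraries and 781309 to 1156416 in scramble libraries, fewer than on day -2 (1816082 to 3345583). Among 10 preadipocyte and fibroblast genes, 6 had a promoter-class peak (Pdgfrb, Dlk1, Col1a1, Col1a2, Zfp423 and Twist2), while Pdgfra, Thy1, Cd34 and Ly6a had none. Their summed normalised count was 241 to 269 in Kdm5c siRNA libraries and 211 to 259 in scramble libraries. No immune, muscle, epithelial, neural or mature fat cell marker of those looked up had such a peak. Of 3 endothelial markers, Kdr had one, with 1.01 to 9.41 normalised counts in Kdm5c siRNA libraries and 9.62 to 13.0 in scramble libraries, and Cdh5 and Pecam1 had none. Since no label says that the replicates were separate cultures, the p-values cover the spread among these libraries only, and that spread may be technical. In bulk libraries, a lower count cannot tell fewer cells with an open site from less opening in each cell.

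Members were short peaks with few reads. Their width, end minus start, ran from 124 to 806 bases with a median of 181 bases, with quartiles at 153 and 223 bases. Distal peaks of day -1 that overlapped a peak of another day (17380, shared distal peaks here) had a median of 324 bases, and promoter-class peaks, those with a gene in the authors' table, 625 bases. Only 10 members (0.204%) were wider than 500 bases, against 25.8% of shared distal peaks. The mean raw count per library over the 8 libraries ran from 3.00 to 127.5 in members, with a median of 6.75, against medians of 17.4 in shared distal peaks and 39.3 in promoter-class peaks. A mean of at least 10 counts was reached by 588 members (12%), against 79.5% of shared distal peaks. Per 100 bases, the median was 3.67 counts in members and 5.63 in shared distal peaks. Peaks found only on day -2 or only on day 0 had median widths of 161 and 166 bases and median counts of 8.75 and 8.0, and 38.0% and 29.5% of them reached a mean of 10. Those libraries held more nuclear counts in peaks, with medians of 2195126 on day -2, 1076488 on day -1 and 1274689 on day 0. Such counts are summed over each day's own peaks and are not the sequencing depth. These values describe the peak calls that also chose the members, and they carry no test.

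**Figure D1:**
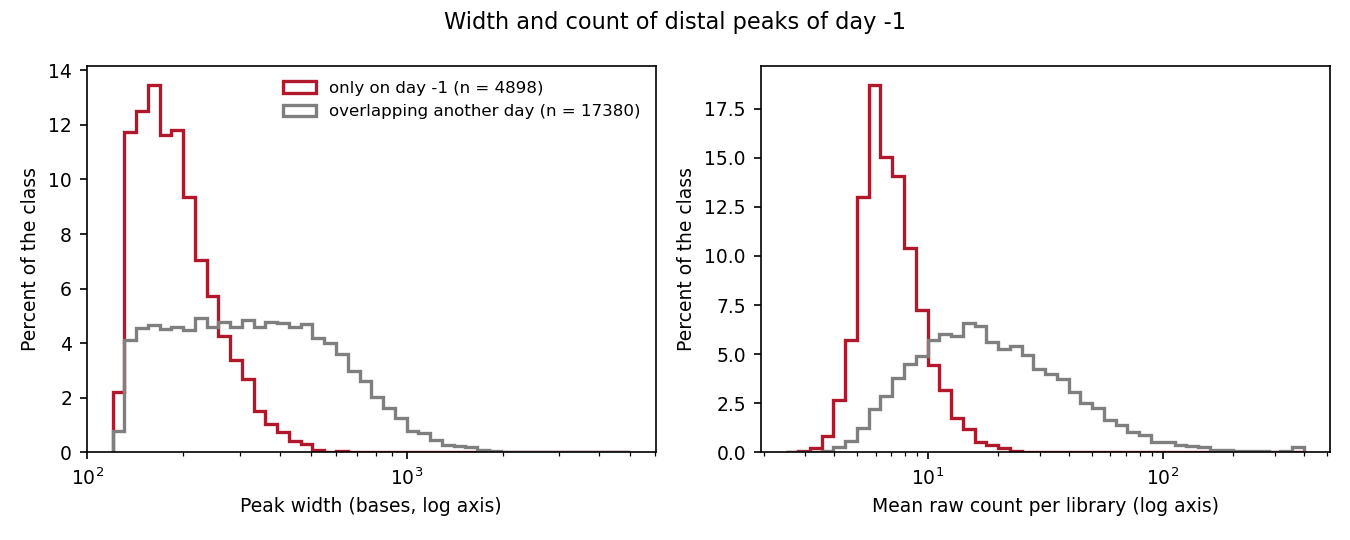
Peak width in bases (left) and mean raw count per library (right), both on log axes, for distal peaks found only on day -1 and for distal peaks that overlap a peak of another day, as percent of each class. The members gather around 181 bases and 6.75 counts, while the other class spreads to wider and higher peaks around medians of 324 bases and 17.4 counts.

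Many members lay close to a peak of another day without touching it. The distance to the nearest such peak had a median of 2336 bases, with quartiles at 571 and 6485 bases. It was at most 100 bases for 418 members (8.53%), at most 1000 bases for 1600 (32.7%) and over 10000 bases for 755 (15.4%). The nearest peak belonged to day -2, the day with the most peaks, for 3788 members (77.3%). Members within 200 bases of such a peak had a median mean count of 7.25, and members over 10000 bases away 6.25. The member farthest from any other day's peak, at 964758 bases, lay inside Tenm2, a gene for a teneurin adhesion protein, at chr11:37186259-37186396 with a mean of 3.38 counts. Next came one in no gene at chr11:27753736-27753889, at 791814 bases, and one inside Lsamp, a gene for a membrane-anchored adhesion protein, at chr16:40968143-40968331, at 764503 bases.

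At the border of the class, membership rested on single bases. Just inside it, the end positions of 13 members and of another day's peak differed by 1. With both end positions taken as part of the peak, no base lies between them. Among these, the highest counts were at chr5:142901892-142902031 inside Gm38733 (mean raw count 22.1), chr12:51865506-51866047 within 10 kb of Heatr5a (13.3) and chr5:130129272-130129495 inside Tpst1 (9.63), a gene for a tyrosine sulphotransferase of the Golgi. Just outside it, 3 peaks shared only an end position with a peak of another day. They lay at chr11:83455694-83455869 inside Mmp28 (5.88), chr8:70880762-70880929 within 10 kb of Slc5a5 (5.88) and chr4:108351263-108351577 within 1 kb of Gm46889 (5.75). The members named here, picked for high counts, were above the members' upper quartile of 8.38. The 3 peaks outside were below the lower quartile of shared distal peaks, 10.9. Requiring a gap of at least 1000 bases would leave 3298 members, and ignoring overlaps of less than 50% would give 6420.

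Members lay inside genes at a share close to that of other distal peaks, and at promoter windows at a smaller share than shared distal peaks. By RefSeq gene spans, which do not separate exons from introns, 3196 members (65.3%) lay inside a gene, against 64.1% of shared distal peaks. The share was 63.9% both for peaks found only on day -2 and for those found only on day 0. A further 137 (2.80%) lay within 1 kb of a gene, 786 (16.0%) within 10 kb and 776 (15.8%) farther away, against 2.76%, 15% and 17.7% of shared distal peaks. With coding genes alone, 2724 members (55.6%) were inside one. A listed transcription start lay within 2 kb of 502 members (10.2%), against 16.2% of shared distal peaks. Distal thus means here only that the authors' table gave no gene. Of the members, 1.37% overlapped a listed promoter window, against 7.84% of shared distal peaks and 71.5% of promoter-class peaks. Promoter-class peaks had a gene in the authors' table, which members lacked by the rule. Peaks found only on day -2 or only on day 0 had shares near that of the members, at 1.00% and 1.20%. Coding genes owned 38.8% of the windows that members touched, against 73.1% of those touched by shared distal peaks. Their median ratio of observed to expected CpG was 0.285, against 0.688 for windows touched by shared distal peaks and 0.384 over all 32851 listed windows. None of the members overlapped any of 1005 listed miRNA hairpins.

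Most genes that held a member held a single one. Members lay inside 2474 genes, of which 2011 held 1, 329 held 2 and 134 held 3 or more. The 37 genes with 5 or more members had a median length of 313 kb, against 46.1 kb over all genes that held one. Sdk1, an adhesion gene of the immunoglobulin superfamily, held 11 members over 974 kb and no shared distal peak. The locus listed as Igh held 9, over 2751 kb, beside 28 shared distal peaks. Wwox, a gene for an oxidoreductase with WW domains, held 8. Cacna1c (calcium channel subunit), Caln1 (calmodulin-like protein), Dennd2a (Rab exchange factor) and Sh3pxd2a (podosome scaffold) held 7 each. Sdk1 and Caln1 are on chromosome 5, and Cacna1c and Dennd2a on chromosome 6.

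Members were most frequent on chromosomes 5 and 6. Chromosome 6 carried 822 members (16.8%), against 9.79% of shared distal peaks, and chromosome 5 carried 781 (15.9%), against 9.0%. Together they held 32.7% of members, 18.8% of shared distal peaks and 12.4% of promoter-class peaks. Peaks found only on day -2 or only on day 0 were also frequent there, at 25.5% and 30.3%. Of 100 distal peaks of day -1, 33.3 on chromosome 5 and 32.6 on chromosome 6 were members, against 22 over all chromosomes. Apart from Y, with no member among 6 distal peaks, the lowest values were 10.3 on chromosome X, 11.6 on chromosome 13 and 11.8 on chromosome 18. Promoter-class peaks had a median raw count of 59.9 on chromosome 6 and 55.8 on chromosome 5, against 37.4 on the remaining chromosomes. Over 20 chromosomes, members per 100 distal peaks and that median had a Pearson correlation of 0.77 and a Spearman correlation of 0.73. The points share the same libraries and are given as a description without a p. The part that counts per chromosome play in the member shares was not tested.

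**Figure D2:**
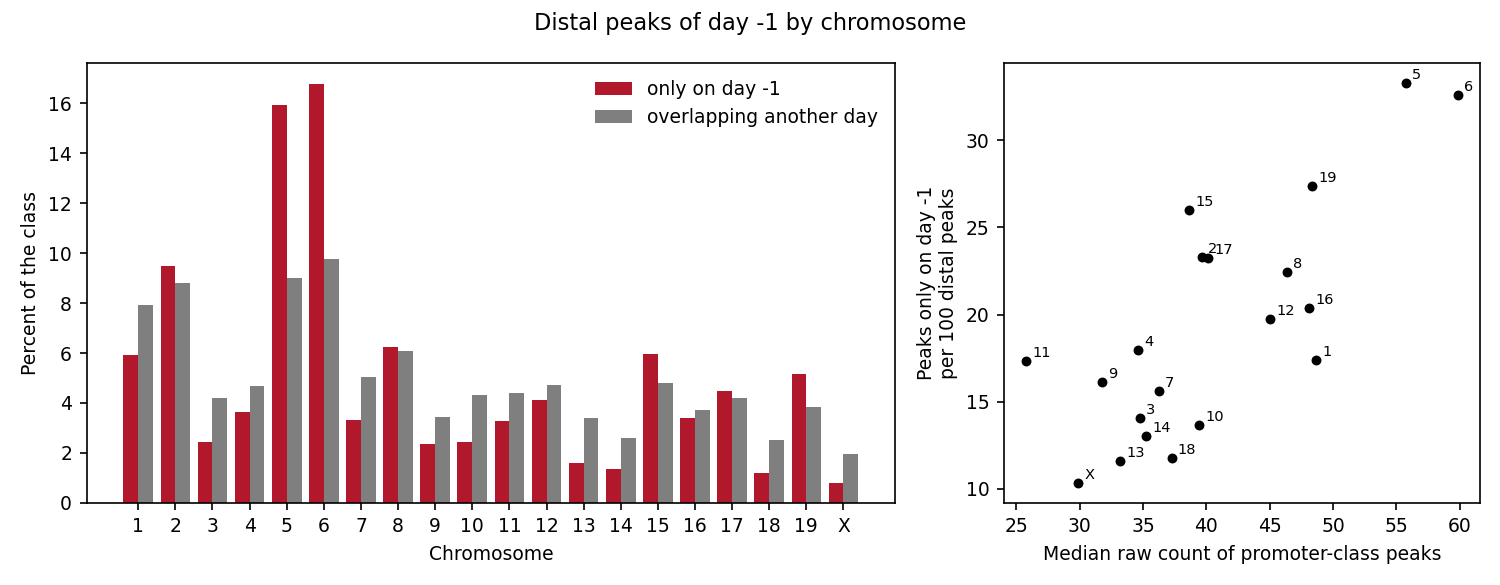
Left, percent of members and of shared distal peaks on each chromosome. Right, members per 100 distal peaks of day -1 against the median raw count of promoter-class peaks, 1 point per chromosome with its name. Chromosomes 5 and 6 stand apart in both panels, with 33.3 and 32.6 members per 100 distal peaks and median counts of 55.8 and 59.9.

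Counts at a member were spread unevenly over the 8 libraries. At least 1 library had no read at 1012 members (20.7%), against 2.04% of shared distal peaks. Every library had 3 reads or more at 1458 members (29.8%), against 86.8% of shared distal peaks. The highest library held a median of 27.1% of a member's normalised count, against 19.0% in shared distal peaks, where equal libraries would hold 12.5% each. In 243 members, a single library held over 40% of the count. The median ratio of variance to mean of normalised counts was 2.98 in members and 2.08 in shared distal peaks. Members also had lower counts, with a median of 6.75 against 17.4, and the part of low counts in this spread was not tested. Kdm5c siRNA replicate 3 was the highest library at 359 members (7.33%), the lowest number of any library, and scramble replicate 1 at 767 (15.7%), the highest. For shared distal peaks, Kdm5c siRNA replicate 3 was highest at 11.3% and scramble replicate 1 at 13.0%.

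The share of reads that fell in members overlapped between the arms. Members held 3.52%, 3.49%, 3.12% and 3.29% of nuclear counts in the Kdm5c siRNA libraries, against 3.79%, 3.35%, 3.62% and 3.05% in the scramble libraries. The arm means were 3.35 ± 0.19% in Kdm5c siRNA and 3.45 ± 0.32% in scramble (SD, n = 4 each), and the difference of -0.10 percentage points was within the spread of either arm. The lowest library was a scramble library and so was the highest. Median normalised counts of the members overlapped too, at 6.01, 6.96, 6.07 and 5.79 in Kdm5c siRNA libraries and 6.71, 6.51, 7.0 and 5.34 in scramble libraries. A normalised count is the raw count divided by the library's relative effective size, with TMM factors that set the bulk of peaks to no average change.

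**Figure D3:**
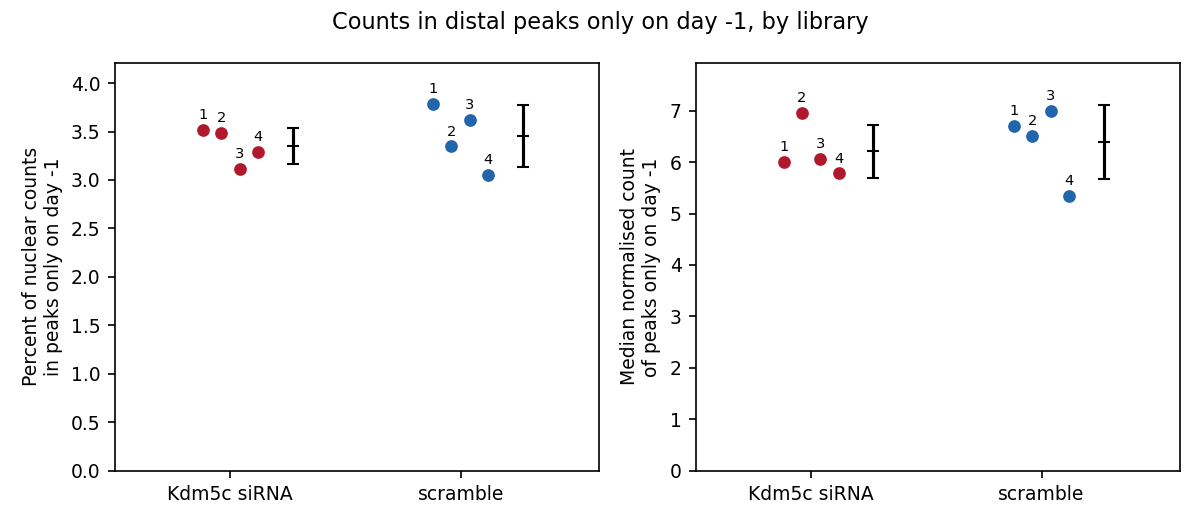
Percent of nuclear counts in members (left) and median normalised count of members (right) per library, with the replicate number at each point and the mean ± SD of each arm beside it (n = 4). Kdm5c siRNA libraries span 3.12% to 3.52% and lie within the scramble span of 3.05% to 3.79%.

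No member differed between the arms after adjustment. Low counts kept most members out of the test, since 645 of 4898 (13.2%) passed the filter on low counts, against 79.5% of shared distal peaks and 91.2% of promoter-class peaks. Of these 645, 0 were called at a Benjamini-Hochberg adjusted p under 0.05 by the quasi-likelihood test of edgeR, as over all 23304 peaks tested (0.0% called). The smallest adjusted p of a member was 0.856. An unadjusted p under 0.05 was found for 42 members (6.51%), against 5.38% of all peaks tested, and 23 of them were higher (3.57%, against 2.55% of peaks) and 19 lower (2.95%, against 2.82%) in Kdm5c siRNA. DESeq2 also called 0, with 33 members (5.12%) under 0.05 unadjusted, against 3.73% of peaks. Of these, 16 were higher (1.79% of all peaks were) and 17 lower (1.94% of all peaks were). With no filter, all 4898 members could be tested, and edgeR called 0, with 275 (5.61%) under 0.05 unadjusted, against 5.23% of 31970 peaks (0.0% called). Of those 275, 111 were higher (2.27%, against 2.47% of all peaks) and 164 lower (3.35%, against 2.76%). The normalised counts of the arms did not overlap at 13 tested members (2.02%), against 3.27% of all peaks tested. Of the 13, 10 were higher in Kdm5c siRNA, where 1.58% of peaks tested were, and 3 lower, where 1.69% were. The filter asked for the minimum count in only as many libraries as an arm holds, so it could keep members through their higher arm. It scaled counts by all reads in peaks, most of them mitochondrial, before TMM. Its part in this split was not tested. Over all 4898 members, the arms did not overlap at 133 (2.72%), against 3.15% of all peaks. Of these 133, 67 were higher (1.55% of all peaks were) and 66 lower (1.6% of all peaks were).

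The fold changes of members were centred near 0 and wide. The median log2 fold change, Kdm5c siRNA over scramble, was -0.01 over the 645 tested members (quartiles -0.33 and 0.36), and it was close to 0 over all peaks tested as well. The median standard error was 0.47 for tested members, 0.32 for shared distal peaks and 0.22 for promoter-class peaks. Changes beyond 1 in either direction were fitted for 4.65% of tested members, 1.06% of tested shared distal peaks and 0.475% of promoter-class peaks. Without the filter the members' median was -0.06 with a standard error of 0.70 in the median member, and 46.6% lay above 0. Over all peaks the unfiltered median was -0.0042, with 49.5% above 0. Of shared distal peaks, 49.7% lay above 0 in that fit. The mitochondrial share of counts averaged 90.02 ± 2.49% in Kdm5c siRNA and 92.3 ± 1.01% in scramble (SD, n = 4 each), and neither its part nor that of the Kdr counts in the arm comparison was tested. At these errors a change of the size of most fold changes fitted was not detectable at a single member.

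**Figure D4:**
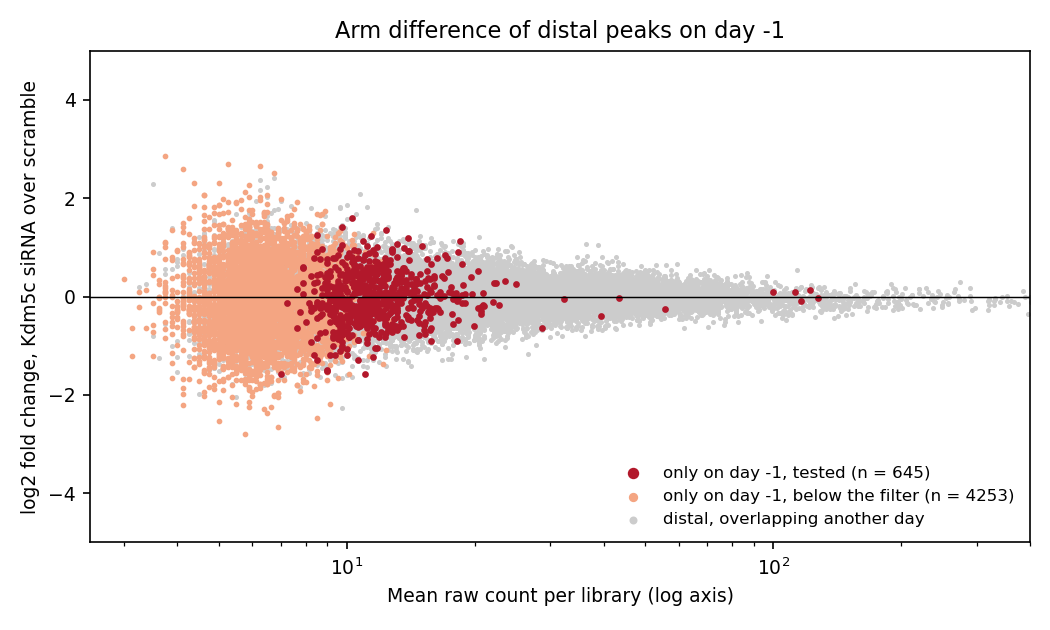
Log2 fold change, Kdm5c siRNA over scramble, against mean raw count per library on a log axis, from the fit without a filter on low counts. The 645 tested members (dark red) and the 4253 members below the filter (light red) lie over shared distal peaks (grey), and the members fan out where counts are low.

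Of the 10 members with separate arms and higher counts in Kdm5c siRNA, the 5 with the smallest p are described first. None passed adjustment. The filter on low counts can keep a member through the arm where it is high. At Gm39341, raw counts were 10, 25, 13 and 15 in Kdm5c siRNA and 5, 5, 3 and 6 in scramble. Separate arms among tested members are therefore given as description only. The member at chr9:124440081-124440573, within 10 kb of LOC108167320, had 34.0, 27.8, 22.3 and 17.4 normalised counts in Kdm5c siRNA libraries, against 13.4, 9.30, 14 and 9.62 in scramble libraries. Its lowest Kdm5c siRNA library was above its highest scramble library, and its log2 difference was 1.12 ± 0.36 (SE, edgeR adjusted p = 0.856). Inside Gm39341, at chr9:54676704-54676942, counts were 10.01, 29.0, 13.1 and 10.9 in Kdm5c siRNA, against 4.79, 4.65, 4.2 and 6.41 in scramble (log2 difference 1.59 ± 0.52). Replicate 2 of Kdm5c siRNA lay far above the rest of its arm there, and the arms did not overlap. Inside Vac14, a gene for the scaffold of the complex that makes phosphatidylinositol 3,5-bisphosphate, at chr8:110708179-110708420, counts were 9.01, 16.2, 21.2 and 10.1 in Kdm5c siRNA, against 4.79, 7.44, 2.80 and 5.34 in scramble. The log2 difference was 1.40 ± 0.52 at this member and 0.14 ± 0.21 at the promoter-class peak of Vac14. At the member inside Gm40016, chr11:63460134-63460578, the log2 difference was 0.99 ± 0.43. At the one inside Pde1b, a calmodulin-dependent phosphodiesterase gene, at chr15:103518695-103518994 and 34 bases from a peak of another day, it was 0.84 ± 0.38.

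After the same filter, only 3 tested members had separate arms with lower counts in Kdm5c siRNA, and none passed adjustment. Inside Acads, the gene for the short-chain acyl-CoA dehydrogenase of mitochondrial fatty acid oxidation, the member at chr5:115112119-115112351 had 3.00, 4.64, 6.07 and 8.68 normalised counts in Kdm5c siRNA libraries, against 14.4, 13.0, 32.2 and 11.8 in scramble libraries. Every scramble library was above every Kdm5c siRNA library, with replicate 3 of scramble far above the rest. The log2 difference was -1.57 ± 0.49 (SE, edgeR adjusted p = 0.856), against -0.23 ± 0.23 at the promoter-class peak of Acads. The member at chr12:119377049-119377219, over 10 kb from any gene, had 12, 5.80, 7.08 and 3.62 in Kdm5c siRNA, against 16.3, 16.7, 12.6 and 20.3 in scramble (log2 difference -1.23 ± 0.47). The arms came within 1 count of each other there. Inside 9530026P05Rik, at chr6:93026171-93026477 and 6 bases from a peak of another day, counts were 12, 8.12, 10.1 and 2.17 in Kdm5c siRNA, against 16.3, 15.8, 14 and 19.2 in scramble (log2 difference -1.05 ± 0.47).

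**Figure D5:**
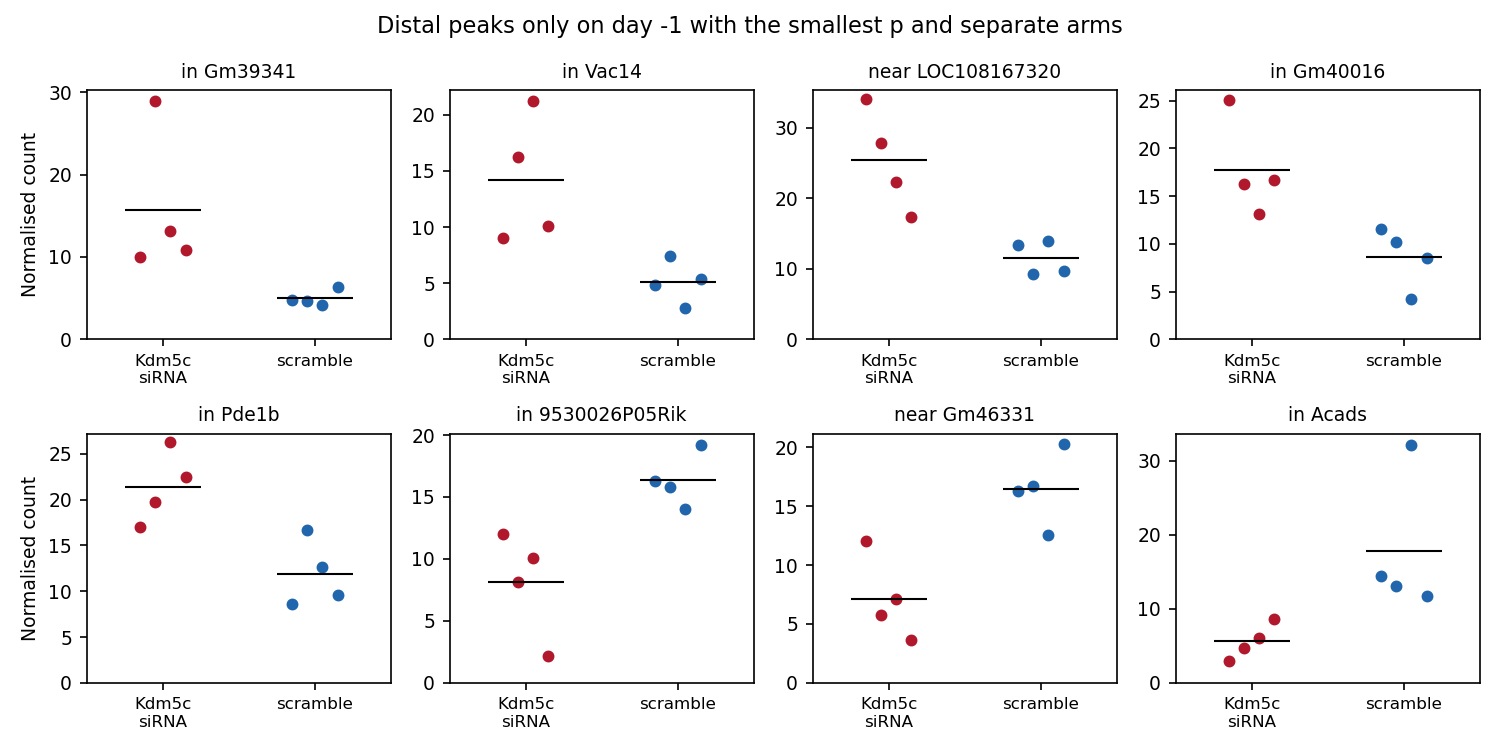
Normalised count per library of the 8 tested members whose arms did not overlap and whose unadjusted p was smallest in each direction, Kdm5c siRNA left of scramble, with the mean of each arm as a line. A Kdm5c siRNA library of Gm39341 at 29.0 and a scramble library of Acads at 32.2 stand apart from their arms.

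Below the filter, the smallest p-values belonged to members with few reads in the arm where they were lower. These were picked after their values were seen. Inside Paxip1, whose protein is a subunit of the MLL3 and MLL4 methyltransferase complexes for lysine 4 of histone H3, the member at chr5:27778882-27779112 had 7.01, 0, 1.01 and 2.17 normalised counts in Kdm5c siRNA, against 22.1, 11.2, 8.40 and 17.1 in scramble. The arms did not overlap, and its log2 difference of -2.46 ± 0.66 had an adjusted p of 0.676 in the unfiltered edgeR fit, the smallest of any member. Inside Mmp24, a gene for a membrane-type matrix metalloproteinase, at chr2:155817508-155817670, counts were 3.00, 5.80, 0 and 4.34 in Kdm5c siRNA, against 19.2, 16.7, 11.2 and 13.9 in scramble (log2 difference -2.18 ± 0.61, adjusted p = 0.742). Inside Cpvl, a serine carboxypeptidase gene, at chr6:53889275-53889477, they were 2.00, 3.48, 1.01 and 1.45 in Kdm5c siRNA, against 8.63, 11.2, 18.2 and 13.9 in scramble (-2.66 ± 0.75, adjusted p = 0.742). In the other direction, the member at chr2:116976491-116976635, within 10 kb of Gm25514, had 5.01, 11.6, 13.1 and 11.6 in Kdm5c siRNA, against 2.88, 2.79, 0 and 0 in scramble. Each of these rests on a handful of reads per library, and none passed adjustment in edgeR.

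The members with the most reads lay in a few stretches of high peak counts. Of the 10 with the highest mean normalised count, 7 were on chromosome 10 and 2 on chromosome 2. The highest, at chr10:107236223-107236554 and over 10 kb from any gene, had 132, 123, 119 and 127 normalised counts in Kdm5c siRNA libraries, against 147, 129, 104 and 131 in scramble libraries. The arms overlapped almost entirely, and the log2 difference was -0.04 ± 0.14. Its 500 kb window held 21.8 times the summed count of the median window. Another 3 of the 10, inside Gm32365, inside Cpm (carboxypeptidase M) and within 10 kb of Kifc5c-ps, averaged 129.5, 116 and 117 normalised counts in Kdm5c siRNA and 117, 125 and 109 in scramble. They shared a window with 169 times the median, in which Cpm and the p53 regulator gene Mdm2 lie. The member at chr10:117532569-117532728, also among the 10, lay in that window too (log2 difference 0.08 ± 0.16). At the Cpm member, chr10:117676333-117676473, the Kdm5c siRNA libraries had 130.2, 124, 121 and 89.0 counts, against 118, 100.5, 207 and 74.8 in scramble, where replicate 3 was far above the rest. The log2 differences at Gm32365, Cpm and Kifc5c-ps were between -0.09 and 0.13. In all, 29 members lay in windows of at least 10 times the median, 8 of them on chromosome 10 and 3 on chromosome 2, and they held 2.44% of member counts.

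Outside those stretches, the highest member was inside Zfp703, a gene for a zinc finger transcriptional cofactor, at chr8:26978104-26978473. It had 39.0, 38.3, 35.4 and 18.8 normalised counts in Kdm5c siRNA, against 32.6, 34.4, 36.4 and 31.0 in scramble. Replicate 4 of Kdm5c siRNA was the lowest, and the log2 difference was -0.05 ± 0.25. On chromosome 2, the member inside Cwc22, a splicing factor gene, at chr2:77939814-77939953, had 34.0, 19.7, 39.4 and 39.8 in Kdm5c siRNA, against 54.6, 51.2, 43.4 and 28.9 in scramble, with overlapping arms. The log2 difference was -0.41 ± 0.24 (edgeR adjusted p = 0.926). In the same window, the member at chr2:77991782-77991929, in no gene, had a log2 difference of -0.64 ± 0.27 (edgeR adjusted p = 0.857), with means of 22.6 ± 4.01 in Kdm5c siRNA and 35.3 ± 10.9 in scramble (SD, n = 4 each).

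The widest members were also wide beside shared distal peaks, whose upper quartile was 509 bases. The widest, 806 bases at chr1:45041237-45042043, lay in no gene and over 10 kb from one. It had 13.0, 23.2, 23.3 and 32.6 normalised counts in Kdm5c siRNA, against 18.2, 16.7, 19.6 and 10.7 in scramble, with overlapping arms (log2 difference 0.52 ± 0.34). A member of 659 bases lay inside Cstad at chr2:30601184-30601843 (-0.16 ± 0.31). One of 612 bases lay inside Hdac9, a class IIa histone deacetylase gene, at chr12:34224391-34225003 (-0.35 ± 0.40). The narrowest had 124 bases each and stayed below the filter. They lay inside Adcyap1r1, a receptor gene for the peptide PACAP, at chr6:55453937-55454061, and in no gene at chr6:117605016-117605140 and chr17:79544337-79544461.

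Members were counted at listed genes for preadipocyte and fat cell programmes, lipid metabolism, matrix, AP-1, TEAD and YAP, Klf factors, histone H3 lysine 4 and the cell cycle. Of 212 genes on 9 lists, 40 held 51 members (1.04% of the class), inside the gene or within 1 kb, against 238 shared distal peaks (1.37% of theirs). Only 13 of the 51 were tested. In edgeR 0 were called, as over all 23304 peaks tested, and 0 had an unadjusted p below 0.05, against 5.38% of those peaks. Without the filter 23 lay above 0 and 28 below, with a median log2 difference of -0.07. In that unfiltered edgeR fit, the unadjusted p was below 0.05 at a member each of Paxip1, Col4a2 and Tcf7l2 (lower in Kdm5c siRNA) and of Irs2 (higher). The same held for 5.23% of all 31970 peaks, and none of these members passed adjustment. None of 13 Klf genes held a member, although 5 of them held 12 shared distal peaks. The Wnt-pathway factor gene Tcf7l2 held 5, more than any other listed gene, and its member at chr19:55768256-55768493 had 6.01, 11.6, 22.3 and 3.62 normalised counts in Kdm5c siRNA, against 6.71, 14.9, 7.0 and 8.55 in scramble, with overlapping arms.

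Among transcription factor genes, Jund and Junb held 1 member each, of 12 genes for AP-1 subunits, 7 of which held 9 shared distal peaks. At Jund, chr8:70699963-70700203, counts were 13.0, 22, 19.2 and 10.9 in Kdm5c siRNA, against 6.71, 16.7, 40.6 and 27.8 in scramble. The arms overlapped, with scramble at both ends, and the log2 difference was -0.47 ± 0.37 (edgeR adjusted p = 0.941). At Junb, chr8:84977970-84978108, the difference was -0.23 ± 0.42. Of 30 genes for adipogenic factors, 4 held a member: Irs2 (insulin receptor substrate), Nfic (a nuclear factor I), Zfp423 and Zfp467 (zinc finger factors of preadipocytes), while 19 held 58 shared distal peaks. The log2 difference was 0.48 ± 0.46 at Nfic, chr10:81429554-81429707, and -0.26 ± 0.45 at Zfp467, chr6:48438533-48438719. In the TEAD and YAP list, Ccn1 (a secreted YAP target), Tead3 and Tead4 held 1 each, of 15 genes, 9 of which held 22 shared distal peaks.

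Of 20 genes for regulators of lysine 4 of histone H3, 5 held 7 members: Kdm2b and Setd1b 2 each, and Kdm5a, Kmt2c and Paxip1 1 each. On the same list, 4 genes held 7 shared distal peaks. Only the member at chr5:123148456-123148652 inside Setd1b, a methyltransferase gene, was tested, with a log2 difference of -0.33 ± 0.48. Of 25 cell cycle genes, Ccnd2 and Mcm2 held 2 members each and Ccnd3 and Cdk6 1 each, while 9 held 22 shared distal peaks. At Mcm2, a subunit gene of the replicative helicase, the member at chr6:88887184-88887491 had 15, 19.7, 16.2 and 18.1 in Kdm5c siRNA, against 19.2, 8.37, 11.2 and 2.14 in scramble. Scramble replicate 1 lay among the Kdm5c siRNA libraries and the other 3 scramble libraries below them (log2 difference 0.74 ± 0.43, edgeR adjusted p = 0.926).

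Of 38 matrix genes, 9 held 11 members, with 2 each in Bgn and Col4a1, and 24 held 51 shared distal peaks. At Col4a1, a basement membrane collagen gene, the member at chr8:11309827-11310192 had 18, 10.4, 9.10 and 13.0 in Kdm5c siRNA, against 15.3, 10.2, 14 and 33.1 in scramble, with overlapping arms (log2 difference -0.51 ± 0.40). At Col6a3, a beaded filament collagen gene, chr1:90838634-90838818, the difference was 0.60 ± 0.48. Of 31 preadipocyte genes, 7 held 11 members: Tcf7l2 5, and Pdgfra, Pdgfrb, Runx1, Smad3, Twist1 and Wnt5a 1 each, and 20 held 42 shared distal peaks. At Pdgfrb, a receptor gene for platelet-derived growth factor, chr18:61054648-61054885, counts were 12, 3.48, 15.2 and 15.2 in Kdm5c siRNA, against 10.5, 10.2, 14 and 10.7 in scramble (log2 difference 0.06 ± 0.46). Of 28 lipid genes, 6 held 7 members, in Acsl1 (2), Dgat1, Dgat2, Lipe, Lpl and Mgll, and 7 held 15 shared distal peaks. None of these lipid gene members was tested after the filter.

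The members at listed promoter windows, shown in part by the sequences above, also gave no call. Of the 67, 35 had an unfiltered log2 difference above 0 and 32 below, with a median of 0.02. After the filter 16 were tested and edgeR called 0, as over all peaks tested. In the unfiltered edgeR fit 5 of the 67 had an unadjusted p under 0.05, against 5.23% of all peaks, and none passed adjustment. Among them, the member at D830013O20Rik had separate arms (8.01, 8.12, 17.2 and 3.62 against 0, 2.79, 0 and 2.14, log2 difference 2.70 ± 0.89). It was picked after its values were seen. The Rai14 member had 16.0, 9.28, 13.1 and 10.1 normalised counts in Kdm5c siRNA, against 18.2, 12.1, 40.6 and 9.62 in scramble (log2 difference -0.67 ± 0.40, edgeR adjusted p = 0.926). Scramble replicate 3 was the highest library, and the arms overlapped. The Per1 member had 10.01, 4.64, 12.1 and 18.1 in Kdm5c siRNA, against 13.4, 27, 12.6 and 8.55 in scramble (-0.43 ± 0.43). The Txnrd1 member had 6.01, 8.12, 14.2 and 10.1 in Kdm5c siRNA, against 10.5, 6.51, 14 and 10.7 in scramble (-0.09 ± 0.49), and the arms spanned nearly the same range. The Furin member, 16 bases from a day -2 peak and below the filter, had 16.0, 17.4, 6.07 and 12.3 in Kdm5c siRNA, against 8.63, 5.58, 11.2 and 5.34 in scramble (unfiltered log2 difference 0.76 ± 0.53).

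Motifs were searched in the 67 windows on both strands, and none of the 5 motifs contains another. TGAGTCA, the AP-1 motif, was in 7 windows (10.4%), against 7.94% of windows touched by shared distal peaks and 5.20% of all listed windows. GGAATG, bound by TEAD proteins, was in 13 (19.4%), against 15.1% and 14.7%. The C/EBP motif TTGCNNAA was in 7 (10.4%), against 8.53% and 10.8%. CCAAT was in 20 (29.9%), against 35.5% and 37.4%, and the GC box GGGCGG was in 20 (29.9%), against 59.4% and 35.7%. Such matches describe the letters of windows around starts, not of members at large, whose own sequences were not read here.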

How the data were processed

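ATAC-seq of 3T3-L1 cells gave 23 libraries over 3 days, of which the 8 of day -1 entered the tests. The authors deposited, for each day, whole-number raw counts per peak and a table of normalised signal for peaks with a gene name. That signal served only to tell promoter-class from distal peaks. The build was GRCm38, and the tools named in the submitters' processing notes were Bowtie2 (2.2.9), cutadapt (2.3), HTSeq (0.9.1), MACS2 (2.1.1) and DESeq2 (1.24.0), with no role stated. The pooling of libraries before peak calling and the handling of duplicate and multiply mapped reads are steps not given in the sources used here. A member near the calling threshold could be gained or lost with those settings.

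Of the 31970 peaks of day -1, the 23304 that passed filterByExpr with a minimum count of 10 were fitted with edgeR 4.0.16 in R 4.3.3. The fit used the quasi-likelihood test, TMM and no covariate, Kdm5c siRNA over scramble. The p-values were adjusted by Benjamini-Hochberg over all peaks tested. Standard errors come from the F statistic. DESeq2 1.42.0 was the second tool. TMM makes fold changes relative to the bulk of nuclear peaks. With arm means removed, libraries of the same replicate number correlated at -0.022 to 0.027 between the arms, and other pairs at -0.033 to 0.029. At low counts such values cannot exclude a pairing, and the main fit used none. No libraries of an arm were duplicates. Overlap with genes and promoter windows used RefSeq GRCm38.p6 tables; promoter windows on chromosome 18 were not used here. Of 214 listed gene names, 212 matched. Coordinates are those of the deposited files, which do not state if starts are counted from 0 or 1.

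Members and gene lists were chosen with earlier results of these data known. Named members were those called, the 5 with the smallest p in each direction among tested members with separate arms, the 10 highest in count, the 3 widest and 3 narrowest, the 10 highest at listed genes, and the 3 on either side of the border of the class.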

Additional observations from a re-analysis of the deposited data

Results flagged for a closer look

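In 4 of 82 arms of 4 libraries checked at named members, 1 library stood apart from the other 3 by Dixon's criterion at the 95% level, which chance alone does in about 1 of 20 arms. At the member inside Gm39341, Kdm5c siRNA replicate 2 had 29.0 normalised counts and the other 3 had 10.01 to 13.1. At the member inside Acads, scramble replicate 3 had 32.2, against 11.8 to 14.4 in the rest of its arm. At the member inside Hdac9, scramble replicate 2 had 28.8, against 12.5 to 14. At the member inside Pdgfrb, scramble replicate 3 had 14, against 10.2 to 10.7.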

How the results depend on the processing

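The number of members called stayed at 0 in every alternative fit run: RLE factors, total-count scaling, no low-count filter, DESeq2, no mitochondrial peaks, the replicate block and each library left out. The number with an unadjusted p under 0.05 was 275 with no filter, since 4898 rather than 645 members were tested, and 60 to 91 with 1 library left out, when 948 to 1283 members passed the filter. As shares of members tested, these were 5.56% to 8.13%, against 5.15% to 5.66% of all peaks tested. With total-count scaling, which lets mitochondrial counts set the library size, the median log2 change of members was 0.35 and that of all peaks tested 0.38. It left 60 members (9.30%) under 0.05 unadjusted, against 13.3% of all peaks, so that the members' share was below that of all peaks there and above it in the TMM fit. With the replicate block, 0 members were called, 40 had an unadjusted p under 0.05, and no call changed. The share of members inside a gene was 68.0% with spans widened by 1 kb and 55.6% with coding genes alone. A mean count of at least 10 would leave 588 members. The arm difference in the members' share of nuclear counts ran from -0.233 to 0.0116 percentage points with 1 library left out and was -0.10 without the members in high windows, an alternative chosen after seeing the data.

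Of 459 alternative values for 33 named members, 431 kept their direction, adjusted p-values ran from 0.328 to 1.00, and 28 reversed sign. With total-count scaling these were the members at chr10:107236223-107236554 (0.35), Cpm (0.29), Gm51783 (0.10), chr10:107255072-107255241 (0.33), Zfp703 (0.30), Cstad (0.21), Hdac9 (0.045), Junb (0.12), Zfp467 (0.12) and Setd1b (0.013), and with the replicate block Pdgfrb (-0.049) and Heatr5a (-0.073). With 1 library left out, the log2 difference ran from -0.12 to 0.032 at chr10:107236223-107236554, from -0.010 to 0.26 at Gm32365, from -0.27 to 0.23 at Cpm, from -0.054 to 0.21 at chr10:117532569-117532728, from -0.22 to 0.13 at chr10:107255072-107255241, from -0.16 to 0.16 at Zfp703, from -0.40 to 0.063 at Cstad, from -0.67 to 0.042 at Hdac9, from -0.46 to 0.11 at Junb, from -0.12 to 0.33 at Pdgfrb and from -0.68 to 0.32 at Heatr5a. At Hdac9 the sign rested on scramble replicate 2 and at Heatr5a on Kdm5c siRNA replicate 3 or scramble replicate 4. Low counts limit the rest, as 4253 members stayed below the filter.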
